A study of Mus musculus with 7 samples.

Results

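The late granule and mature neutrophil genes Camp, Ltf, Ngp, Lcn2, Mmp8, S100a8, S100a9, Retnlg, Cd177 and Csf3r were followed in bone marrow of mice with and without Aim2. They are 10 of 35498 annotated genes, chosen by name for their place in late neutrophil development. Bone marrow RNA came from female mice 5 to 6 months old, labelled Aim2 knock out (KO, 3 libraries) or wild type (WT, 4 libraries). No strain, deleted exon or further treatment is given in the labels. They leave unsaid whether every library is a separate animal, and the p-values here measure the spread between libraries. Strand-specific mRNA libraries held 20777315 to 21027429 estimated reads in KO and 20300468 to 21099972 in WT.

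Neutrophils fill their granules in sequence. Promyelocytes make the primary granule proteases, myelocytes and metamyelocytes make specific granule proteins such as lactoferrin and cathelicidin, and band cells make gelatinase granule proteins and surface receptors. The switch to the specific granule genes depends on the transcription factor C/EBPε, and granulocyte colony-stimulating factor (G-CSF) drives the expansion and release of the cells. Marrow holds the main reserve of mature neutrophils, so transcripts of the late stages are abundant in whole marrow RNA.

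The start regions of 4 granule protein genes are shown, chosen with their levels known. Camp, Ngp and Ltf lie in 1 stretch of chromosome 9. Camp had nearly the same mean in both genotypes. In Ngp, Ltf and Lcn2 every KO library was above every WT library, which held for 6.95% of all tested genes. None of the 4 passed between genotypes (adjusted p = 0.438 to 0.999, edgeR). Differences between these genes, and any link of the sequences to their levels, were not tested. Each region is the 250 bases before the RefSeq start (build GRCm38.p6), 5′ to 3′ on the gene's strand. Capitals mark matches, on either strand, to the C/EBP motif TTNNGCAA or to the PU.1 motif GAGGAA.
Camp (minus strand, chr9:109849457-109849706): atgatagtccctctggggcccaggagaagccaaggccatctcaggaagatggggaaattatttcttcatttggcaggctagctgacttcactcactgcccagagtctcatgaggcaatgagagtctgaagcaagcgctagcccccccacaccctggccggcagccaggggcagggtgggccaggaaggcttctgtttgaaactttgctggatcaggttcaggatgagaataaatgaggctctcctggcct
Ngp (plus strand, chr9:110419558-110419807): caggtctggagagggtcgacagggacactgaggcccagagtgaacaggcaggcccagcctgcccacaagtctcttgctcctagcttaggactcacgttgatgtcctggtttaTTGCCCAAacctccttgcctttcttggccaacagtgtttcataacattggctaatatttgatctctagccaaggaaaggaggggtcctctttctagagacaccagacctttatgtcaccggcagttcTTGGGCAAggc
Ltf (plus strand, chr9:111019042-111019291): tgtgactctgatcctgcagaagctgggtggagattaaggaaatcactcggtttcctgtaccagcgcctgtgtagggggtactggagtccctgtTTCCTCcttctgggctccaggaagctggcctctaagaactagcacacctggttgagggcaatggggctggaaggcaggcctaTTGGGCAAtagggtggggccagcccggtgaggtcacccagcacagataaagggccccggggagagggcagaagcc
Lcn2 (minus strand, chr2:32387740-32387989): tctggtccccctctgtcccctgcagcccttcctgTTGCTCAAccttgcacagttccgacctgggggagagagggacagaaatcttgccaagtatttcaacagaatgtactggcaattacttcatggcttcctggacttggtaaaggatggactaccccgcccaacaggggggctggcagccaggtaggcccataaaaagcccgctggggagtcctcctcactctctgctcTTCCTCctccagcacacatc

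The C/EBP letters were found in 6 of the 10 start regions, those of Ltf, Ngp, Lcn2, Mmp8, S100a9 and Retnlg, against 9.56% of 32851 RefSeq start regions of the same length. Ngp held 2 matches, beginning 138 and 11 bases before the start, and Ltf 1 match beginning 75 bases before it. The PU.1 letters were found in 6 of 10, those of Ltf, Lcn2, Mmp8, S100a8, Cd177 and Csf3r, against 23.3% of all start regions. The Camp window held neither, but only part of it lies before the quantified Camp transcript, which begins at 109849617, inside the window. The quantified Ngp transcript begins at 110419747 and the main Lcn2 transcript at 32387797, also inside their windows. The Ngp match 11 bases before the RefSeq start and the Lcn2 PU.1 match lie within the span of these transcripts. S100a8 and Cd177 held a TATA box (TATAAA, either strand), present in 12.4% of start regions. The C/EBP and PU.1 matches do not overlap in the 4 regions shown. A match of letters shows neither binding nor its absence.

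For Aim2, which encodes a sensor of cytosolic DNA and is the targeted gene, KO libraries 1 to 3 held 157, 47 and 59 reads. WT libraries 1 to 4 held 601, 573, 535 and 533 reads, so the groups were apart and KO library 1 was the highest of its group. The log2 fold change was -2.76 ± 0.38 (SE; adjusted p = 0.0280, edgeR). In TPM, a measure per transcript length, Aim2 averaged 7.90 ± 2.32 in KO and 17.4 ± 1.46 in WT (SD, n = 3 and 4). The groups were apart there too, but the relative difference was smaller than in reads. Haemoglobin genes took 11.3 to 13.7% of reads in KO and 13.8 to 19.9% in WT, where library 1 had most. Results are therefore also given without KO library 1 and without WT library 1.

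None of the 10 late neutrophil genes passed the test between KO and WT marrow (adjusted p from 0.312 to 0.999, quasi-likelihood test of edgeR, Benjamini-Hochberg adjustment over 14238 genes). Among all tested genes 0.646% passed, 0.478% higher and 0.169% lower in KO. At an unadjusted p under 0.05, 3 of the 10 were higher in KO (Retnlg, Cd177 and Mmp8) and 0 were lower, where 11.5% of all genes met that limit, 6.45% higher and 5.01% lower. DESeq2, which called 2.65% of all genes, and limma voom with sample weights, which called 2.14%, each called 0 of the 10 after adjustment. Their counts at an unadjusted p under 0.05 were 7 and 6 of 10, where 8.17 and 18.0% of all genes met it. With a library left out the edgeR count was 0 without KO library 1, KO library 2 or WT library 2, 4 without WT library 1 and 5 without WT library 3, against 7.98 to 13.5% of all genes over the 7 such fits.

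The estimates lay mostly on 1 side, with 9 of 10 log2 fold changes above 0, against 47.3% of all genes. In 6 genes, Ltf, Ngp, Lcn2, Mmp8, Retnlg and Cd177, every KO library was above every WT library, which held for 6.95% of all tested genes. The reverse held for 0 of the 10 and for 5.94% of all genes. The median log2 fold change of the 10 was 0.26 against -0.01 over all tested genes, and the estimates ran from -0.00 (Camp) to 0.46 (Mmp8). Without WT library 1 the median was 0.17, 6 of 10 did not overlap (8.93% of all genes) and 0 passed (0.459% of all genes). Without KO library 1 the median was 0.27, 8 of 10 did not overlap (12.1%) and 0 passed (0.291%). Leaving out any other library gave 6 or 7 of 10 without overlap, against 8.77 to 12.7% of all genes. In whole marrow RNA, more cells of a type and more RNA per cell cannot be told apart.

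**Figure D1:**
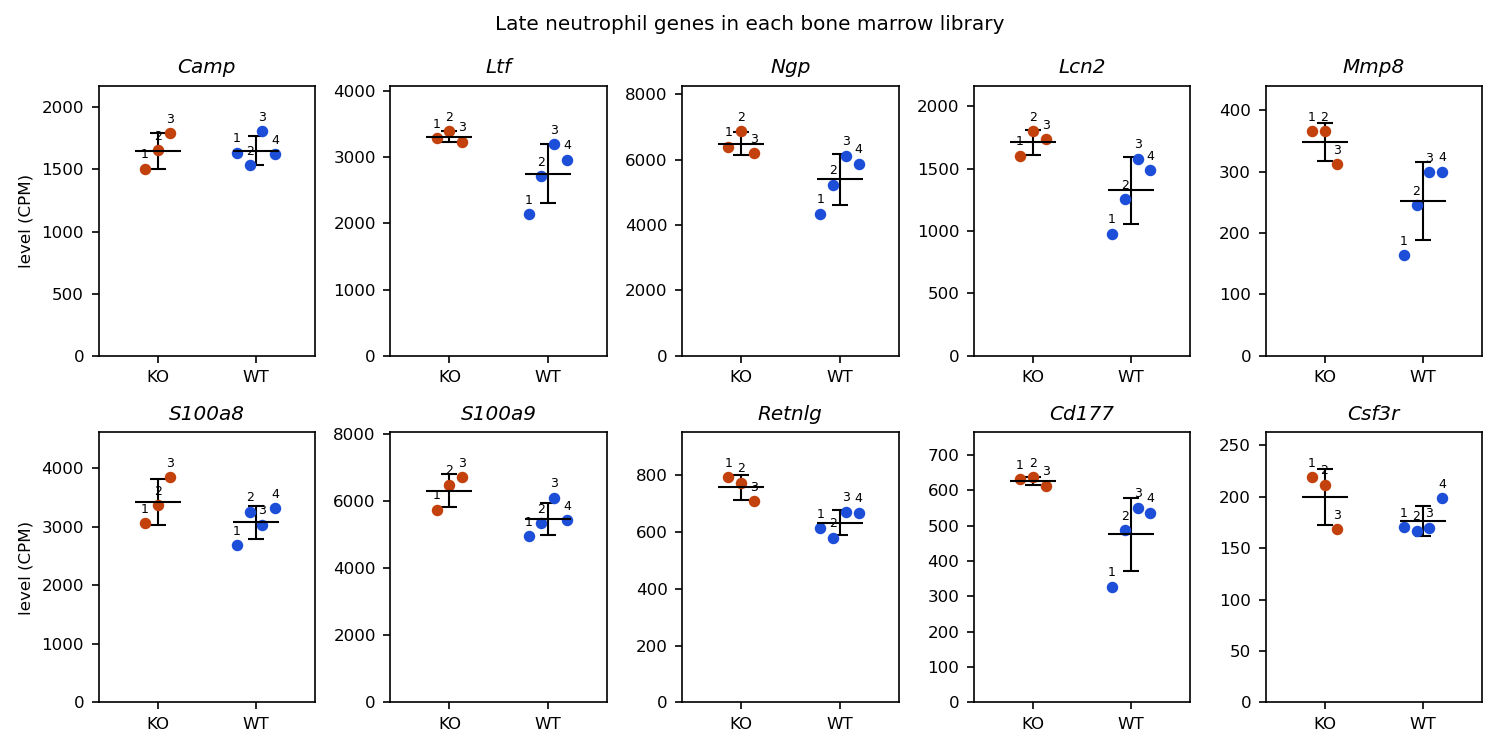
Level of each of the 10 genes (CPM, axis from 0) in every library, KO left of WT. Points are libraries with their sample number, and bars are the mean and SD. In Ltf, Ngp, Lcn2, Mmp8, Retnlg and Cd177 the 3 KO points lie above the 4 WT points, and WT library 1 is lowest in 7 of the 10 genes.

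Ngp, the cathelin-related neutrophilic granule protein (ENSMUSG00000032484.8, chromosome 9, 110419747 to 110423012), had levels of 6392, 6874 and 6199 CPM in KO, against 4342, 5237, 6120.5 and 5869 CPM in WT. Gene coordinates are those of GENCODE M21 on build GRCm38. CPM is the read count scaled to a common library total with TMM factors, which balance the libraries for composition. The lowest KO library was only just above the highest WT library. The log2 fold change was 0.27 ± 0.15 (SE; adjusted p = 0.542, edgeR), with a 95% interval of -0.07 to 0.60, and was 0.18 without WT library 1. Ngp took 0.664% of all reads in KO and 0.532% in WT on average, and with S100a9 it was the most heavily read of the 10.

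Camp, which encodes cathelicidin, the precursor of an antimicrobial peptide (ENSMUSG00000038357.10, chromosome 9, 109847379 to 109849617), lies 570.1 kb from Ngp. Its levels were 1505, 1654 and 1789 CPM in KO, against 1636, 1532, 1809 and 1622 CPM in WT. The groups overlapped fully, and the lowest library was a KO library. The means were 1649 ± 142 CPM in KO (SD, n = 3) and 1649.8 ± 116 CPM in WT (SD, n = 4), with a fold of 1.000 and a 95% interval of 0.850 to 1.18. The log2 ratio of Camp to Ngp in TPM, a measure per transcript length, was -1.07 ± 0.16 in KO and -0.79 ± 0.20 in WT (SD, n = 3 and 4). Its libraries overlapped between genotypes. The log2 ratio of Camp to Ltf in TPM was 0.80, 0.82 and 0.91 in KO, against 1.06, 1.00, 0.95 and 1.00 in WT. There every KO library was below every WT library, which held for no other gene pair examined. In read counts this ratio overlapped between genotypes. KO library 3 had 39538 Camp and 71517 Ltf reads, and WT library 4 had 33900 and 61881. The TPM ratio also rests on the effective length of Ltf, 1760 bases in KO library 3 and 1881 bases in WT library 4. Differences in these ratios were not tested.

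Ltf encodes lactoferrin, the iron-binding protein of specific granules (ENSMUSG00000032496.7, chromosome 9, 111019271 to 111042767). Its levels were 3289.9, 3395 and 3236 CPM in KO, against 2143, 2716, 3191 and 2961 CPM in WT. The KO libraries lay within a narrow band, with a coefficient of variation of 2.45%, against 16.4% in WT, where library 1 was lowest. The log2 fold change was 0.26 ± 0.14 (SE; adjusted p = 0.539, edgeR), 0.16 without WT library 1, and 0.14 with an offset for transcript length.

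Lcn2 encodes lipocalin 2, which withholds iron by binding bacterial siderophores (ENSMUSG00000026822.14, chromosome 2, 32384633 to 32388252). Its levels were 1604, 1801 and 1734 CPM in KO, against 978, 1256, 1579 and 1489.5 CPM in WT. The groups did not overlap, but KO library 1 and WT library 3 were close. The log2 fold change was 0.37 ± 0.16 (SE; adjusted p = 0.438, edgeR), and 0.25 without WT library 1.

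Mmp8, the neutrophil collagenase (ENSMUSG00000005800.3, chromosome 9, 7558456 to 7568485), had the highest estimate of the 10. Its levels were 365, 366 and 312 CPM in KO, against 164, 245, 299 and 300.0 CPM in WT. WT library 1 was far below the other WT libraries, and KO library 3 was just above WT libraries 3 and 4. The fold was 1.38 with a 95% interval of 1.01 to 1.88 (adjusted p = 0.426, edgeR), and the log2 fold change of 0.46 ± 0.20 (SE) was 0.31 without WT library 1. Mmp8 lies 102278.9 kb from Camp, away from the group formed by Camp, Ngp and Ltf.

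S100a8 and S100a9 encode the calcium-binding subunits of calprotectin, an abundant protein of the neutrophil cytosol, and lie 22.6 kb apart on chromosome 3. S100a8 (ENSMUSG00000056054.9, 90668978 to 90670035) had 3059.6, 3365 and 3842 CPM in KO, against 2690.1, 3257, 3033 and 3316 CPM in WT. S100a9 (ENSMUSG00000056071.12, 90692632 to 90695721) had 5739, 6476 and 6696 CPM in KO, against 4949, 5339.6, 6091 and 5423 CPM in WT. For both the groups overlapped and KO library 3 was highest. The log2 fold changes were 0.15 ± 0.13 for S100a8 and 0.21 ± 0.12 for S100a9 (SE; adjusted p = 0.697 and 0.582, edgeR), and that of S100a8 was 0.10 without WT library 1 and 0.057 without KO library 3. The log2 ratio of S100a8 to S100a9 in TPM was -0.75 ± 0.06 in KO and -0.69 ± 0.15 in WT (SD, n = 3 and 4), a difference smaller than the WT spread.

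Retnlg, a secreted resistin-like protein of mouse neutrophils (ENSMUSG00000022651.6, chromosome 16, 48872621 to 48874496), had the smallest p of the 10. Its levels were 791, 773 and 707 CPM in KO, against 613, 579.9, 670.5 and 668 CPM in WT. The groups did not overlap, and WT library 2, not library 1, was lowest. The log2 fold change was 0.26 ± 0.09 (SE; adjusted p = 0.312, edgeR), and it was 0.24 without WT library 1. Its adjusted p with DESeq2 was 0.0754, the lowest for any of the 10 under the settings tried, and the other settings gave Retnlg up to 0.647.

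Cd177 encodes a neutrophil surface glycoprotein that, in human cells, holds proteinase 3 at the membrane (ENSMUSG00000052212.6, chromosome 7, 24743983 to 24760311). Its levels were 632, 637 and 613 CPM in KO, against 328, 487, 551 and 537 CPM in WT. The coefficient of variation was 1.95% in KO and 21.5% in WT, and counting error was at most 1.28% of a library's value. The estimate was 0.40 ± 0.17 on the log2 scale (SE; adjusted p = 0.421, edgeR), and 0.26 without WT library 1.

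Csf3r, the G-CSF receptor (ENSMUSG00000028859.14, chromosome 4, 126024550 to 126044440), had 219, 212 and 168 CPM in KO, against 171, 167, 169.9 and 198 CPM in WT. KO library 3 lay among the WT libraries and WT library 4 was high. KO over WT, the log2 fold change was 0.18 ± 0.11 (SE; adjusted p = 0.597, edgeR), 0.11 without KO library 1 and 0.28 without KO library 3. Csf3, its ligand, had 0 reads in all 7 libraries, which allows up to 3 reads in each.

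**Figure D2:**
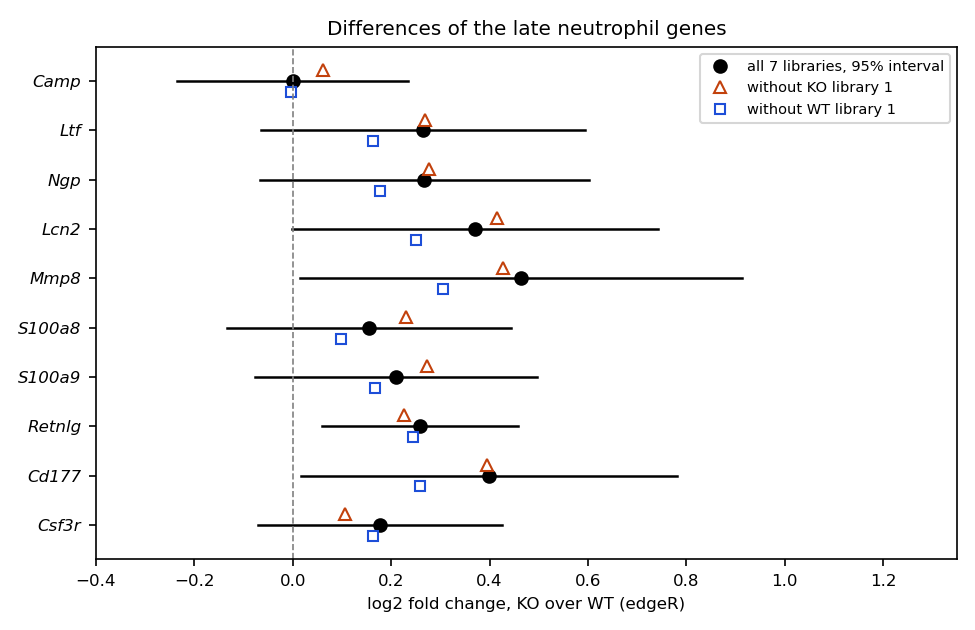
Log2 fold change, KO over WT, of each of the 10 genes with all 7 libraries (filled points with 95% intervals), without KO library 1 (open triangles) and without WT library 1 (open squares). The intervals of Mmp8, Retnlg and Cd177 lie above 0 before adjustment. Without WT library 1 every estimate other than that of Camp is nearer to 0.

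WT library 1 was the lowest of the 7 libraries in 7 of the 10 genes. The members' median deviation from the WT mean was -0.24 there, -0.03, 0.18 and 0.13 in WT libraries 2 to 4, and 0.29, 0.30 and 0.27 in KO libraries 1 to 3, on the log2(CPM + 0.5) scale. The 10 genes together took 2.42, 2.53 and 2.67% of reads in KO and 1.65, 2.09, 2.39 and 2.22% in WT. The mean difference of 0.45 percentage points was 0.31 without WT library 1. WT library 1 also had the highest haemoglobin share. With haemoglobin, immunoglobulin and mitochondrial genes left out of the scaling, the median log2 fold change of the 10 was 0.260, against 0.262 in the main fit. Any part of the haemoglobin share in the result other than through scaling was not tested.

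Per transcript length, calprotectin transcripts were the most abundant of the 10 and the G-CSF receptor the least. S100a9 averaged 23724 ± 1974 TPM in KO and 18699 ± 3074 TPM in WT, and was the gene ranked 4 or 5 of all genes in each library. S100a8 averaged 14096 ± 1759 TPM in KO and 11552 ± 1823 TPM in WT. Ngp followed at 6377 ± 118 TPM in KO and 4882 ± 1083 TPM in WT, then Camp at 3040.3 ± 311 TPM in KO and 2777 ± 364 TPM in WT. Lcn2, Retnlg and Ltf averaged 2421, 2179 and 1693 TPM in KO and 1729.7, 1662 and 1390.4 TPM in WT. Lcn2 and Retnlg overlapped in KO, and all of Lcn2, Retnlg and Ltf overlapped in WT. Within every library Retnlg was above Ltf, while the place of Lcn2 changed between libraries. Cd177, Mmp8 and Csf3r were lowest, at 237, 163 and 67.9 TPM in KO and 167, 108 and 54.1 TPM in WT. In WT, Cd177 and Mmp8 overlapped, as did Mmp8 and Csf3r (all values SD, n = 3 KO and 4 WT). Within every library Cd177 was above Mmp8, and Mmp8 above Csf3r.

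On the TPM scale, limma with a pseudocount of 0.1 moved the median over all genes by 0.14 (log2). The 10 genes then ran from 0.14 (Camp) to 0.66 (Mmp8), so Camp stayed at the level of that shift and 0 passed. Ltf had an average effective length of 1372 bases in WT library 1, against 1760 to 1980 bases in KO and 1796 to 1881 bases in the other WT libraries. Ltf-208, a short transcript with a retained intron, took 0.321, 0.288 and 1.11% of the gene's reads in KO and 2.61, 0.839, 1.28 and 0.331% in WT. WT library 1 was highest.

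Single transcripts carried most of the reads. Camp, Mmp8, Ngp and Retnlg had 1 quantified transcript each. S100a9 was read as a pair of protein-coding transcripts, and the lesser one took 13.5 to 14.3% of its reads in KO and 13.3 to 13.8% in WT. The longer coding transcript of Csf3r took 9.25 to 13.6% of the gene's reads in KO and 3.56 to 12.6% in WT, lowest in WT library 1. Reads shared by overlapping transcripts were divided by the quantifier's model, so these shares are estimates and were not tested.

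Of 35 other tested genes of mature neutrophils 1 was higher in KO, 0 were lower and 34 did not pass, with 8 passing in DESeq2 (2.65% of all genes) and 3 in limma voom (2.14%). The median log2 fold change was 0.36 against -0.01 over all genes, 35 of 35 estimates were above 0 against 47.3% of all genes, and 14 had every KO library above every WT library, against 6.95% of all genes. Ifitm6, an interferon-induced transmembrane family gene, rose to 249, 267 and 290.0 CPM in KO, against 157, 169, 191 and 189.7 CPM in WT. The rise was 0.60 ± 0.09 on the log2 scale (SE; adjusted p = 0.0382, edgeR), and with any 1 of the libraries removed it no longer passed (edgeR, adjusted p = 0.0605 to 0.156). Lrg1, a secreted leucine-rich glycoprotein, and Asprv1, an aspartic protease, had log2 fold changes of 0.66 and 0.65 (adjusted p = 0.0984 and 0.114, edgeR). Stfa2 did not reach the read filter, and reads of its close relatives in the stefin A cluster are uncertain between members.

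**Figure D3:**
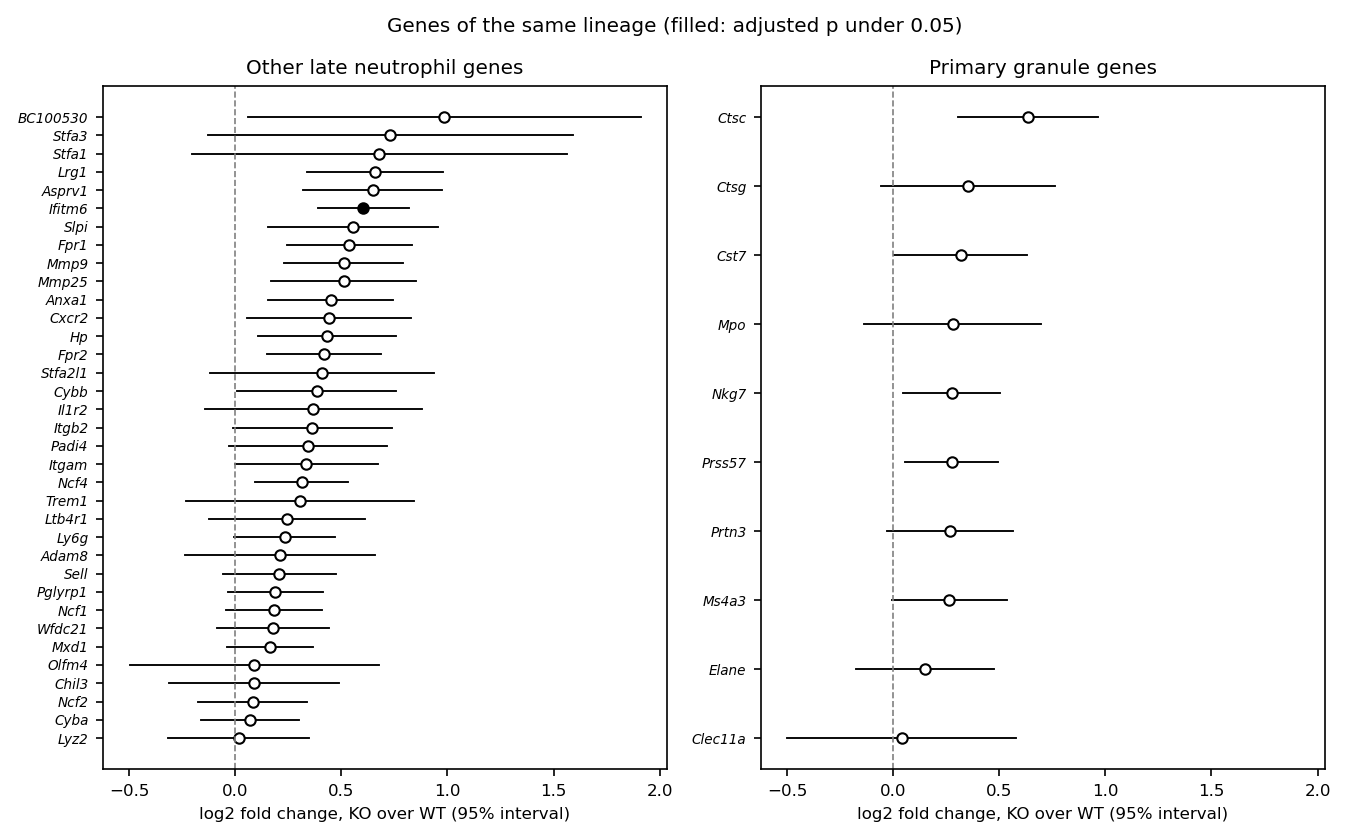
Log2 fold change, KO over WT, with 95% intervals for 35 other late neutrophil genes (left) and 10 primary granule genes (right), ordered by size. Filled points passed at an adjusted p under 0.05, which only Ifitm6 did. Every estimate lies above 0, with Lyz2 lowest at 0.02.

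Of 10 primary granule genes of promyelocytes 0 passed (edgeR), with 4 higher at an unadjusted p under 0.05 (6.45% of all genes). DESeq2 passed 1 (2.65% of all genes) and limma voom 1 (2.14%), and the median log2 fold change was 0.28. Ctsc, the protease that activates granule serine proteases, averaged 133 ± 16.4 CPM in KO and 85.6 ± 14.3 CPM in WT (SD, n = 3 and 4; adjusted p = 0.122, edgeR). Prss57 and Nkg7 had log2 fold changes of 0.28 each. A difference between the late and primary granule genes was not tested.

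Of 15 granulopoiesis transcription factors 0 passed (edgeR, DESeq2 and voom). At an unadjusted p under 0.05, 1 was higher (6.45% of all genes), and the median log2 fold change was 0.07. Fos, Spi1, which encodes PU.1, and Junb had log2 fold changes of 0.66, 0.31 and 0.27 (adjusted p = 0.319 to 0.492, edgeR). Of 14 tested G-CSF receptor signalling genes, which include Csf3r, 0 passed in edgeR. DESeq2 and voom passed 1 each (2.65 and 2.14% of all genes). At an unadjusted p under 0.05, 3 were higher (6.45% of all genes), and the median was 0.12. Socs3, the feedback inhibitor of that receptor, was at 15.4 to 16.5 CPM in KO and 10.5 to 12.5 CPM in WT. These groups did not overlap, and the estimate was 0.44 ± 0.09 on the log2 scale (SE; adjusted p = 0.0880, edgeR). Stat3, which carries the receptor's signal to the nucleus, had a log2 fold change of 0.29.

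For genes of marrow retention and release 0 of 9 tested passed (edgeR, DESeq2 and voom). At an unadjusted p under 0.05, 3 were higher (6.45% of all genes), and the median log2 fold change was 0.10. Cxcr2, the chemokine receptor that promotes release, was at 118, 122 and 119 CPM in KO and 63.5, 81.5, 94.4 and 113 CPM in WT, without overlap, and its log2 fold change was 0.44 (adjusted p = 0.369, edgeR). Pecam1 and Selplg, which serve adhesion to endothelium, were at 0.21 and 0.36. Cxcl1 and Cxcl2 did not reach the read filter. Cxcr2 is also counted among the other late neutrophil genes.

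Among receptors and partners of the S100 proteins 1 of 12 tested was higher (0.478% of all genes) and 0 were lower (0.169%). DESeq2 and voom passed 1 each (2.65 and 2.14% of all genes), and the median log2 fold change was 0.14. Myd88, the adaptor of Toll-like receptors, rose to 72.4, 75.4 and 78.8 CPM in KO, against 53.3, 58.9, 57.4 and 57.9 CPM in WT. Its estimate was 0.41 ± 0.07 on the log2 scale (SE; adjusted p = 0.0421, edgeR), and with any 1 of the libraries removed it no longer passed (edgeR, adjusted p = 0.0607 to 0.156). S100a11 and S100a6 were at 0.35 and 0.31. For lipocalin receptors and iron partners 0 of 7 tested passed in edgeR, 1 in DESeq2 (2.65% of all genes) and 0 in voom. At an unadjusted p under 0.05, 1 was lower (5.01% of all genes), and the median was -0.12. The ferritin chains Ftl1 and Fth1 and the iron exporter Slc40a1 were at -0.29, -0.24 and -0.23.

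No marker of the other marrow cells listed passed the edgeR test, and summed B lineage, monocyte and plasma cell markers did not overlap between KO and WT. Their part in the result for the late neutrophil genes was not tested. Counts of these genes are read against the shares of all genes given above, 6.45% higher and 5.01% lower at an unadjusted p under 0.05. For DESeq2 and voom the shares passing were 2.65 and 2.14%. Values given for these genes below are log2 fold changes, and sums are CPM. Summed B lineage markers were at 192 to 303 CPM in KO and 382 to 629 CPM in WT, with 0 of 12 past the test, 9 lower at an unadjusted p under 0.05, 7 passing in DESeq2 and 5 in voom, and a median log2 fold change of -0.93. Pax5, Cd79a and Cd79b were at -1.21, -0.98 and -0.95 (adjusted p = 0.0684 to 0.0868, edgeR). Summed erythroid markers were at 111503 to 144996 CPM in KO and 141688 to 225132 CPM in WT, with 0 of 9 past the test, 1 in DESeq2 and 0 in voom, and 1 lower at an unadjusted p under 0.05. Their median was -0.33, and Klf1, Hba-a2 and Hbb-bt were at -0.33, -0.45 and -0.39.

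Summed monocyte markers were at 1389 to 1654 CPM in KO and 928 to 1319.8 CPM in WT, without overlap. Of these 0 of 10 passed in edgeR, 2 in DESeq2 and 1 in voom, 6 were higher at an unadjusted p under 0.05, and the median was 0.33, with Ms4a6c, F13a1 and Ly6c2 at 0.58, 0.45 and 0.60. Summed plasma cell markers were at 709.95 to 883 CPM in KO and 445 to 679 CPM in WT, with 0 of 8 passing in edgeR, 2 in DESeq2 and 0 in voom, 6 higher at an unadjusted p under 0.05 and a median of 0.53. Xbp1, Prdm1 and Jchain were at 0.49, 0.59 and 0.57. Eosinophil and basophil markers had 0 of 10 passing in edgeR, DESeq2 and voom, 2 higher at an unadjusted p under 0.05 and a median of 0.69. Their sums ranged from 1353 to 3277 CPM in KO and 292 to 1852 CPM in WT, lowest in WT library 1, with Ccr3, Ear2 and Cpa3 at 0.40, 1.33 and 0.40.

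T and NK cell markers summed to 112 to 119 CPM in KO and 107 to 136 CPM in WT, with 0 of 10 passing in edgeR, 2 in DESeq2 and 1 in voom, and a median of -0.26. At an unadjusted p under 0.05, 4 were lower and 1 was higher, and Cd8a, Cd4 and Nkg7 were at -0.92, -0.70 and 0.28. The higher gene was Nkg7, which is also counted among the primary granule genes. Megakaryocyte markers gave 0 of 8, proliferation genes 0 of 14 and skeletal muscle markers 0 of 12, with 0 at an unadjusted p under 0.05 and 0 in DESeq2 and voom for each. Their medians were 0.08, -0.10 and 0.52. Ppbp and Gp5 were at 0.18 and 0.11, and Pcna, Birc5 and Aurka at -0.16, -0.23 and -0.15. The summed muscle markers were at 72.2, 971 and 7575 CPM in KO libraries 1 to 3 and at 1341 to 2686 CPM in WT. Myh4, Pvalb and Mylpf were at 1.06, 0.96 and 0.49. None of these marker lists held a gene at 0 reads in every library.

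**Figure D4:**
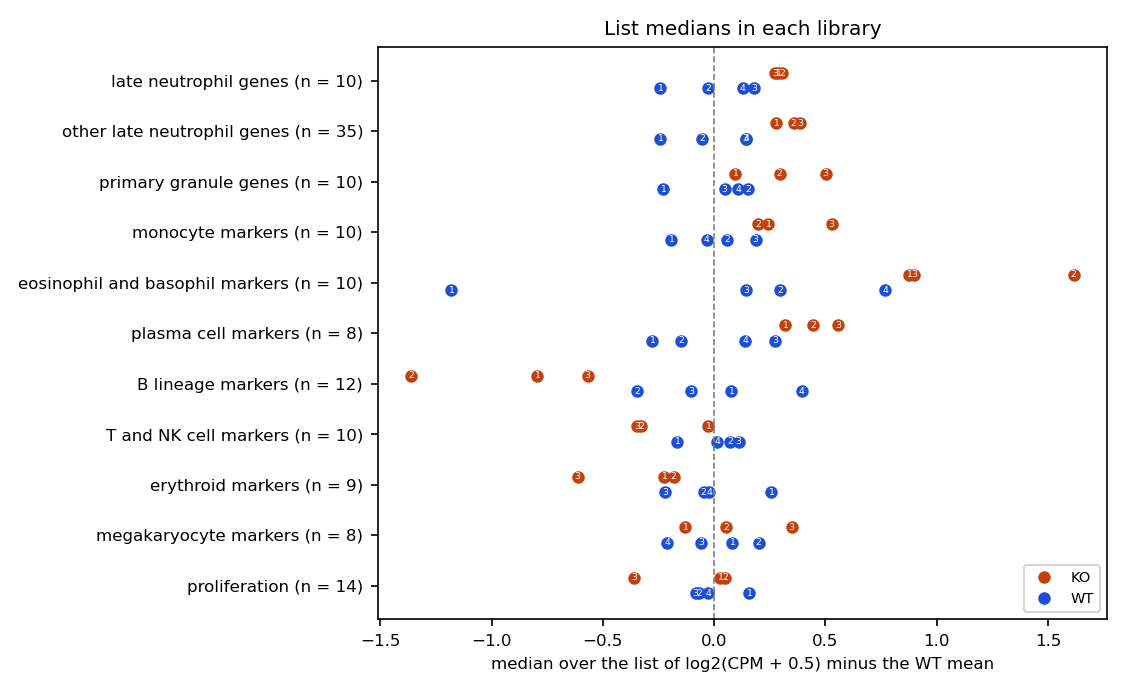
Median over each list of log2(CPM + 0.5) minus the WT mean, in each library (KO above WT, numbers are sample numbers). For the 10 late neutrophil genes the KO libraries lie at 0.27 to 0.30 and the WT libraries at -0.24 to 0.18. B lineage markers lie at -1.36 to -0.57 in KO and -0.34 to 0.39 in WT.

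The genes whose pattern over the 7 libraries was most like the median of the 10 were found by the root-mean-square difference of centred log2(CPM + 0.5) values, among 9376 other genes whose mean reached 10 CPM. The closest was Irf1, an interferon-regulated transcription factor, at 73.4, 73.3 and 69.6 CPM in KO and 50.4, 60.8, 67.8 and 63.9 CPM in WT, with a difference of 0.032. Armc7, Sp140, Rasgrp4, Myo1g, Ncf1, Sept5 and Fgl2 followed, at 0.033 to 0.048, where the median gene was at 0.22. Of these, Ncf1, a subunit of the phagocyte NADPH oxidase, was on the list of other late neutrophil genes. Among the 10 themselves Ngp was closest to the shared pattern (0.039) and Mmp8 (0.204) and Camp (0.179) were farthest. Each of the 10 helps to set the median it is measured against, so these distances cannot be compared with those of the other genes.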

How the data were processed

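Per the labels' protocols, strand-specific mRNA libraries were made from column-extracted marrow RNA. Per the submitters' processing notes, reads were checked with FastQC 0.11.9 and quantified with Salmon 1.7.0 against GRCm38.p6, and DESeq2 was named. The authors deposited estimated counts for 116546 transcripts, not normalized, together with TPM values scaled for effective length and library total. For Salmon's options and annotation release, the answer is not given in the sources used here.

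Transcripts were joined to GENCODE M21 on GRCm38 by identifier without version. The 569 without a gene were left out, which left 35498 genes. Estimated counts of a gene's transcripts were added up and rounded to whole numbers. After filterByExpr 14238 genes were tested, KO over WT, with edgeR 4.0.16 (R 4.3.3), TMM factors of 0.918 to 1.06, the quasi-likelihood test and Benjamini-Hochberg adjustment, threshold 0.05, 3 KO and 4 WT libraries, no covariates. The SE is the log2 fold change over the square root of F. The fit was tested on simulated data, with planted changes larger than any estimated for the 10 genes and the same dispersion set for every gene. That test therefore cannot tell how well differences of the size seen here would be found. At 20300468 to 21099972 reads a library, counting error was at most 1.81% of any value of the 10 genes.

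Alternatives were DESeq2 1.42.0, limma 3.58.1 (voom with sample weights, and log2(TPM + 0.1) or log2(TPM + 1)), RLE scaling, scaling without haemoglobin, immunoglobulin and mitochondrial genes or without neutrophil genes, other filters, a length offset, a block and leaving out each library. The 10 genes and the 16 other lists were chosen with earlier results of these data known. From each other list, the 3 tested genes with the smallest p, and any that passed, are named, except some that are not reported here. Start regions come from RefSeq tables of GRCm38.p6, which held all 10 genes, and motifs were searched on both strands.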

Additional observations from a re-analysis of the deposited data

Results flagged for a closer look

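Among 67 gene levels examined over the 4 WT libraries, 3 had 1 library far from the others, and chance gives about 5% of such groups. Csf3r was at 198 CPM in WT library 4, against 167 to 171 CPM in the other WT libraries, and the gap took 0.887 of the WT range. Fos was at 4.24 CPM in WT library 1, against 8.14 to 8.63 CPM in the other WT libraries, a gap of 0.888 of the range. Ly6c2, a monocyte marker, was at 211 CPM in WT library 1, against 349 to 359.9 CPM in the other WT libraries, a gap of 0.93 of the range.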

How the results depend on the processing

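None of the 10 genes passed under the 20 other settings, where 0.12 to 2.65% of all genes passed. These settings are not all separate fits. An adjusted p under 0.1 was read from the main fit, and samples 1 to 3 without a block repeat the fit without WT library 4. Of the 10 genes 9 kept a positive estimate throughout. Their median log2 fold change ranged from 0.17 (without WT library 1) to 0.38 (TPM). Camp, at -0.00, changed sign with RLE scaling (0.00102), scaling without neutrophil genes (0.000870), DESeq2 (0.000500), the filter at a mean of 1 CPM (0.00124) and log2(TPM + 0.1) or log2(TPM + 1) (0.14 each), and ranged from -0.069 (without KO library 3) to 0.062 (without KO library 1) with a library left out, and was 0.047 without WT library 3. The TPM scales shifted the median of all genes by 0.14 and 0.11. Over all genes 92 passed, 73.9% of them higher in KO, against 398 with DESeq2 (63.1% higher), 305 with voom (60% higher), 55 with the length offset, 49 and 50 on the TPM scales (87.8 and 90% higher), 198 at an adjusted p under 0.1, and 17 to 65 with a library left out. With the replicate block on samples 1 to 3 the count was 21 (95.2% higher), against 51 for the same samples without it. That comparison was added after the data were seen, and its fit is the planned one without WT library 4. Deviations of same-numbered libraries from their group means had correlations of 0.124, -0.0406 and -0.271. Deviations from the means of only 3 and 4 libraries are tied to each other. These correlations therefore cannot decide whether the numbers pair the libraries. Of the other late neutrophil genes 1 passed, against 8 with DESeq2, 3 with voom, 0 on either TPM scale, 0 with the block, 0 for those samples without it, 2 at an adjusted p under 0.1, and 0 to 1 with a library left out. For primary granule genes the count of 0 became 1 with DESeq2 and 1 with voom. The causes were not tested.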
